A study of Mus musculus with 20 samples.

Results

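The Tarm1, TREM and CD300 paired receptors described here are 10 genes, out of 78409 genes listed in the deposited table, and were selected by name: Tarm1, Pirb and Lilrb4a of the leukocyte receptor complex and LILR family, Trem1, Trem2 and Treml4 of the TREM family, Cd300a, Cd300ld and Cd300lf of the CD300 family, and Cd200r1. They were chosen by their values over these treatment groups, so their levels, fold changes and calls are given as a description with no test, and nothing is read from how many of them were called. The libraries are bulk 3′-end RNA sequencing of bone marrow-derived macrophages (BMDMs), 20 in all and 4 in each of 5 groups. Macrophages in every group were grown from the marrow of female wild-type C57BL/6J mice in L929 fibroblast-conditioned medium and treated on day 7 of culture at 200000 cells per well. Controls received PBS. The other groups received bronchoalveolar lavage fluid (BALF) fractions from mice with ovalbumin-induced airway inflammation, either RNY1+/+ or RNY1-/-, the latter with a CRISPR deletion of the small noncoding Y RNA gene RNY1. The fractions were stored cold for 5 days before use, and no storage is given for the PBS of the controls. Before treatment the macrophages were washed and moved to Opti-MEM without serum. The knockout mice were obtained from GemPharmatech, and the methods give all other mice as wild-type C57BL/6J. Whether the RNY1+/+ donors were littermates is not stated, so donor genotype and donor colony cannot be told apart. The extracellular vesicle-enriched fraction (EVFx) pooled size-exclusion fractions 1 to 4 and was given at 35000000 particles per µL, and the protein-enriched fraction (ProteinFx) pooled fractions 9 to 20 and was given at 0.75 µg protein per µL. Particle and protein doses are on different scales, so a difference between EVFx and ProteinFx is a difference between these preparations at these doses. The RNY1 genotype is that of the fluid donors and never that of the macrophages. The methods give an age of 7 to 16 weeks for the study's mice, and state neither the length of treatment nor what fluid pool, marrow donor or well each of the 4 libraries in a group had as its source. The spread between libraries, and every p-value below, may therefore be technical.

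Paired receptors are surface proteins of myeloid cells that come as activating and inhibitory relatives. Activating members have short tails and signal through the adaptors DAP12 (Tyrobp), DAP10 (Hcst) or the Fc receptor γ chain (Fcer1g), whose tyrosine motifs recruit the kinase SYK. Inhibitory members carry tyrosine motifs of their own, which are phosphorylated by SRC family kinases and recruit the phosphatases SHP-1 (Ptpn6), SHP-2 (Ptpn11) and SHIP1 (Inpp5d) or the DOK adaptors. Many bind lipids exposed on dying cells, lipoproteins or MHC class I, and in the airway they are known for setting the threshold at which macrophages respond to debris and inflammatory stimuli.

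Promoter sequences are shown for the 5 receptors with the largest differences in the values below, or with levels that differed between the fractions or donor genotypes, so that their upstream letters can be read beside their levels. RefSeq promoters (build GRCm38.p6) were found for 8 of the 10 genes. Each runs 5′ to 3′ on the strand of the gene, from 250 bases before its start to 50 bases after. Capitals mark matches, on either strand, to GAGGAA (the core bound by PU.1 and other ETS factors), TGANTCA (AP-1) and TTGCNNAA (C/EBP), and none of these matches overlap. The intervals are chr7:3502575-3502874 (minus strand) for Tarm1, chr17:48264045-48264344 (plus) for Treml4, chr17:48346151-48346450 (plus) for Trem2, chr11:114889791-114890090 (plus) for Cd300a and chr11:115133943-115134242 (minus) for Cd300lf.
Tarm1: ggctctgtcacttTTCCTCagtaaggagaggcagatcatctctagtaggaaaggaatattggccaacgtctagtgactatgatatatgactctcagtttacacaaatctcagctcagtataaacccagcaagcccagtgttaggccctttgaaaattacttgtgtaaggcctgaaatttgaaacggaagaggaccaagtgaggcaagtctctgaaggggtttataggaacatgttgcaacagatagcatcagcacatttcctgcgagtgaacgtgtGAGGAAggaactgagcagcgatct
Treml4: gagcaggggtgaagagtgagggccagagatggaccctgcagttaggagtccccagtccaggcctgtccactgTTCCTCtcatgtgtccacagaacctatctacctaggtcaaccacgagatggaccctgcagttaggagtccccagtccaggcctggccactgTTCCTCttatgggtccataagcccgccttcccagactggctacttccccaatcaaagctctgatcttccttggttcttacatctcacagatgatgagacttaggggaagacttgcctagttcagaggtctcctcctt
Trem2: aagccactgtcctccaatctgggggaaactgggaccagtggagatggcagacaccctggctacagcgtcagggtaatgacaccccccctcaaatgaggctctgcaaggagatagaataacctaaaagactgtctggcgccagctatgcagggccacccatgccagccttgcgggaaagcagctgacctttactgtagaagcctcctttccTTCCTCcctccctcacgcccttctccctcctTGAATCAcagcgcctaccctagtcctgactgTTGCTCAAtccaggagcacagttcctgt
Cd300a: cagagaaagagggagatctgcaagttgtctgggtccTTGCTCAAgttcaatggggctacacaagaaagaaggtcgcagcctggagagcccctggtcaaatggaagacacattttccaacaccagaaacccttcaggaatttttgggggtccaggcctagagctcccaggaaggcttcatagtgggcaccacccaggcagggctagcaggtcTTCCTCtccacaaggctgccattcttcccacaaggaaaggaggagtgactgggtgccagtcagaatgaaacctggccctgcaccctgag
Cd300lf: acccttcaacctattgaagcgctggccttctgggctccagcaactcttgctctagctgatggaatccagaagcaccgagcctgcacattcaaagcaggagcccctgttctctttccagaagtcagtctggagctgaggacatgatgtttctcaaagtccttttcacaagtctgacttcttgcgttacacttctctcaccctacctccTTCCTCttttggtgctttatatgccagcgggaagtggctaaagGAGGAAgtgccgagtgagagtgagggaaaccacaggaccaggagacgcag
GAGGAA was found in 8 of the 8 promoters of these receptors that were in the RefSeq table and in 28.3% of all 32851 promoters in it. TGANTCA was found in 1 of the 8, that of Trem2, and in 7.81% of all promoters. TTGCNNAA was found in 2 of the 8, those of Trem2 and Cd300a, and in 10.8% of all. Motifs for IRF factors and NF-κB were not matched in any of the 8, against 3.44% and 1.63% of all promoters. Cd300lf, whose levels lay below PBS with EVFx and above it with ProteinFx, Tarm1, which was high in both, and Treml4, which was measurable with EVFx only, each held 2 matches to GAGGAA and none to the other motifs. The promoters of Pirb, Trem1 and Cd300ld also held GAGGAA and none of the other motifs. A match is a description of letters in a window, and no match says only that these letters are not in it.

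Library totals ran from 2510005 to 8277366 counts (median 5456425). Counts are of molecules tagged by unique molecular identifiers, with those that map to several genes shared between them as fractions. Levels are CPM, a count scaled to 1 common library total. A gene at or under 3 counts in a library was taken as not measurable there, which is 0.362 to 1.2 CPM. A gene was called where its edgeR quasi-likelihood, Benjamini-Hochberg adjusted p was under 0.05 and its log2 fold change was beyond 1 in either direction. Groups whose libraries do not overlap in CPM were common over all genes tested. The share was 43.5%, 52.3%, 46.9% and 31% for RNY1+/+ EVFx, RNY1-/- EVFx, RNY1+/+ ProteinFx and RNY1-/- ProteinFx against PBS. It was 44.7% and 14.3% between genotypes in EVFx and ProteinFx, and 55% and 33% between fractions for RNY1+/+ and RNY1-/- fluid. A lack of overlap is therefore given as a description. All 7 macrophage markers were above the floor in every library, with a summed level of 8450 to 12850 CPM. The 10 neutrophil markers summed to 163 to 382 CPM, mostly S100a8 and S100a9. Their sum was 313.5 to 342.7 CPM in PBS, 163 to 276 CPM in the EVFx groups and 222 to 382 CPM in the ProteinFx groups. Ly6g was at 0 in every library outside RNY1+/+ ProteinFx. The 7 eosinophil markers summed to 9.28 to 15.3 CPM in PBS, 1.00 to 2.46 CPM in the EVFx groups and 13.2 to 21.4 CPM in the ProteinFx groups, mostly Ccr3, and Epx was at 0 in every library. The markers of mast cells and basophils, B cells and dendritic cells each summed to 1.81 CPM at most, those of T cells to 9.22 CPM, those of airway epithelium to 15.9 CPM and those of fibroblasts to 26.2 CPM. Their part in the results was not tested. PBS replicate 3 stood apart from the other PBS libraries, and RNY1-/- ProteinFx replicates 1 and 2 stood apart from 3 and 4, so values are also given without PBS replicate 3, or for RNY1-/- ProteinFx replicates 1 and 2 or 3 and 4 alone, where that changes a call or where the receptor itself stood apart in them. In bulk RNA, fewer cells that express a gene and less of its RNA per cell cannot be told apart.

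Against PBS, Tarm1 was present in all 4 treatment groups and close to absent in controls, Trem2 and Cd300a were lower in all 4, Cd300lf was higher in both ProteinFx groups, Treml4 was measurable in the EVFx groups only, and Lilrb4a was called higher in both EVFx groups. Lilrb4a rose less with RNY1+/+ and RNY1-/- ProteinFx, by 0.84 and 0.50 on the log2 scale, inside the fold limit. Cd300ld was lower in all 4 groups, also inside that limit. The 4 comparisons share the same PBS libraries. With RNY1+/+ EVFx, 3 of the 9 receptors that passed the filter on low counts were called higher (Tarm1, Treml4, Lilrb4a) and 2 lower (Trem2, Cd300a), where 16.4% of all genes tested were called, 8.24% higher and 8.2% lower. With RNY1-/- EVFx, 2 of 8 were called higher (Tarm1, Lilrb4a) and 2 lower (Trem2, Cd300a), where 22.5% of all genes were called, 9.01% higher and 13.5% lower. With RNY1+/+ ProteinFx, 2 of 8 were called higher (Tarm1, Cd300lf) and 2 lower (Trem2, Cd300a), where 21.3% of all genes were called, 8.96% higher and 12.4% lower. With RNY1-/- ProteinFx the calls were of the same 4 genes, 2 of 8 higher and 2 lower, where 14.3% of all genes were called, 6.31% higher and 7.99% lower. Trem1 passed no filter, and Treml4 passed only where its EVFx libraries were high enough to carry it. Since the receptors were picked from these values, nothing follows from these counts. The split of all calls depends on the scaling: higher genes made up 50.1%, 40% and 42% of calls for RNY1+/+ EVFx, RNY1-/- EVFx and RNY1+/+ ProteinFx with TMM, 37.3%, 24.5% and 29.4% with total counts, and 62.9%, 67.5% and 65.6% with trends of GC content and length removed. For RNY1-/- ProteinFx they made up 44.1% with TMM and 64.5% with the trends removed. Total counts moved the median log2 fold change of all genes to -0.21, -0.27, -0.20 and -0.10 in these 4 comparisons, from -0.03 in each with TMM.

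**Figure D1:**
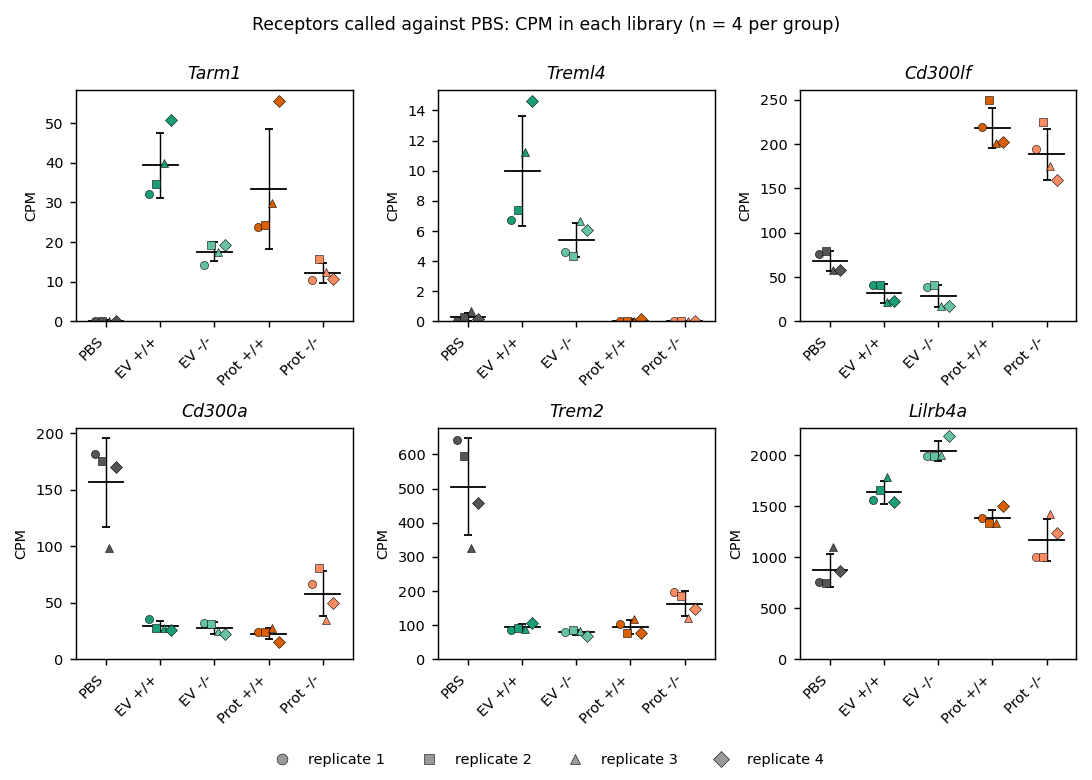
CPM of 6 receptors in each library (points, 1 symbol per replicate number) by treatment group, with the group mean (horizontal line) and SD (bars), n = 4 libraries per group. EV and Prot stand for EVFx and ProteinFx, and +/+ and -/- for the RNY1 genotype of the fluid donors. Tarm1 lies at 0.229 CPM or less in PBS and at 10.4 CPM or more in every treated library, Treml4 is above 4 CPM in the EVFx libraries alone, and Cd300lf sits below PBS with EVFx and above it with ProteinFx.

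Tarm1 (ENSMUSG00000053338, chromosome 7), an activating receptor of the leukocyte receptor complex that pairs with the Fc receptor γ chain, was counted once in each of PBS replicates 1, 3 and 4 and not at all in replicate 2, 3 counts in total. With RNY1+/+ EVFx its levels were 32.1, 34.7, 39.8 and 50.7 CPM (mean 39.3 ± 8.27, SD, n = 4). With RNY1-/- EVFx they were 14.3, 19.4, 17.5 and 19.2 CPM (17.6 ± 2.34). The lowest RNY1+/+ library was above the highest RNY1-/- library. With RNY1+/+ ProteinFx the levels were 23.7, 24.3, 29.9 and 55.5 CPM (33.4 ± 15), replicate 4 being well above the others in the group. With RNY1-/- ProteinFx they were 10.4, 15.8, 12.4 and 10.6 CPM (12.3 ± 2.50). Here too the genotypes did not overlap, while the fractions of 1 genotype did. Ratios to PBS rest on those 3 control counts, so they are given with exact 95% intervals that cover counting error only. The summed Tarm1 counts per library total were 281 times those of PBS with RNY1+/+ EVFx (95.8 to 1360), 124 times with RNY1-/- EVFx (42.1 to 604), 248 times with RNY1+/+ ProteinFx (84.5 to 1210) and 90.8 times with RNY1-/- ProteinFx (30.7 to 443). Between donor genotypes, the log2 fold change of RNY1-/- against RNY1+/+ was -1.10 (standard error 0.15) in EVFx and -1.53 (0.28) in ProteinFx. In order of the mean the groups ran from PBS through RNY1-/- ProteinFx, RNY1-/- EVFx and RNY1+/+ ProteinFx to RNY1+/+ EVFx, and the second and the third overlapped, as did the fourth and the fifth. The EVFx value sits near the fold limit: it was -0.93 with GC and length trends removed, -0.94 without RNY1+/+ EVFx replicate 4 and -0.99 without RNY1-/- EVFx replicate 1, none of which was called. The ProteinFx value was -1.14 without RNY1+/+ ProteinFx replicate 4, and -0.97 and not called in replicates 1 and 2 alone.

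Lilrb4a (ENSMUSG00000112148, chromosome 10), an inhibitory LILR family receptor with tyrosine motifs that recruit phosphatases, was high in all groups. Its PBS levels were 761, 753, 1104 and 869 CPM, replicate 3 being the highest. With RNY1+/+ EVFx they were 1557, 1661, 1787 and 1544 CPM, and with RNY1-/- EVFx 1994, 1991, 1999 and 2191 CPM. All EVFx libraries were above all PBS libraries, and the RNY1-/- libraries were above the RNY1+/+ ones. With RNY1+/+ ProteinFx the levels were 1387, 1332, 1336 and 1500 CPM, and with RNY1-/- ProteinFx 1006, 1003, 1422 and 1241 CPM, the latter overlapping PBS. Log2 fold changes against PBS were 1.09 (standard error 0.14), 1.47 (0.14), 0.84 (0.14) and 0.50 (0.17) in the order RNY1+/+ EVFx, RNY1-/- EVFx, RNY1+/+ ProteinFx and RNY1-/- ProteinFx, and without PBS replicate 3 they were 1.22, 1.62, 0.97 and 0.62. The first was 0.91 and not called with total counts. RNY1-/- against RNY1+/+ was 0.39 (0.08) in EVFx and -0.33 (0.14) in ProteinFx. Reads of Lilrb4a are shared out with its near-identical neighbour Lilrb4b: counts of Lilrb4a were fractional in 20 of 20 libraries and the ratio of the pair stayed between 0.574 and 0.780. With both summed, a choice made after the data were seen, RNY1+/+ EVFx against PBS was 0.94 and not called.

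Pirb (ENSMUSG00000058818, chromosome 7), the inhibitory paired immunoglobulin-like receptor that binds MHC class I, had PBS levels of 315, 295, 159 and 227 CPM, the lowest in replicate 3. They were 228, 202, 166 and 232 CPM with RNY1+/+ EVFx and 152, 158, 99.4 and 108 CPM with RNY1-/- EVFx, and the 2 EVFx groups did not overlap. They were 193, 180, 176 and 180 CPM with RNY1+/+ ProteinFx and 245, 226, 136 and 146 CPM with RNY1-/- ProteinFx. Log2 fold changes against PBS were -0.09 (standard error 0.20), -0.71 (0.22), -0.28 (0.18) and -0.34 (0.24), and without PBS replicate 3 they were -0.25, -0.85, -0.45 and -0.51, none called. With RNY1-/- ProteinFx replicates 1 and 2 alone the last was -0.06, and with replicates 3 and 4 alone it was -0.69. RNY1-/- against RNY1+/+ EVFx was -0.61 (0.14), and -0.10 when the counts of Pirb were summed with those of its Pira relatives and Lilra6, with which it shares reads.

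Trem2 (ENSMUSG00000023992, chromosome 17), a DAP12-coupled receptor for lipids and lipoproteins including apolipoprotein E, had PBS levels of 641, 597, 327 and 457 CPM (505 ± 142). With RNY1+/+ EVFx they were 86.7, 91.6, 88.7 and 107 CPM (93.5 ± 9.23), and with RNY1-/- EVFx 80.2, 85.5, 84.2 and 68.5 CPM (79.6 ± 7.75). With RNY1+/+ ProteinFx they were 105, 76.8, 117 and 78.3 CPM (94.3 ± 20.0), and with RNY1-/- ProteinFx 198, 187, 121 and 149 CPM (164 ± 35.3). Every treated library was below every PBS library, and the RNY1-/- ProteinFx libraries were above the other treated ones. Against PBS the log2 fold changes were -2.26 (standard error 0.19), -2.43 (0.19), -2.26 (0.22) and -1.57 (0.22) in the same order, and without PBS replicate 3, the lowest of its group, they were -2.42, -2.57, -2.42 and -1.73. RNY1-/- against RNY1+/+ was -0.17 (0.09) in EVFx and 0.71 (0.16) in ProteinFx, the latter being 0.89 with RNY1-/- ProteinFx replicates 1 and 2 alone and 0.49 with replicates 3 and 4 alone.

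Treml4 (ENSMUSG00000051682, chromosome 17), a TREM-like receptor that binds late apoptotic cells, had 0 to 3 counts in PBS libraries, 6 counts in all. With RNY1+/+ EVFx its levels were 6.72, 7.38, 11.2 and 14.6 CPM (9.98 ± 3.67), and with RNY1-/- EVFx 4.60, 4.32, 6.65 and 6.06 CPM (5.41 ± 1.13). It had 1 count over the 4 RNY1+/+ ProteinFx libraries and 0 over the 4 RNY1-/- ProteinFx libraries. All EVFx libraries were thus above the floor, and the 12 others were at or under it. Summed counts per library total were 35.3 times those of PBS with RNY1+/+ EVFx (exact 95% interval 16 to 97.1) and 18.6 times with RNY1-/- EVFx (8.30 to 51.5). Against ProteinFx from donors of the same genotype, they were 188 times higher with RNY1+/+ EVFx (33.4 to 7440) and, with the floor of 3 counts per library in place of 0, at least 7.31-fold higher with RNY1-/- EVFx. RNY1-/- against RNY1+/+ EVFx was -0.84 (standard error 0.26) on the log2 scale and was not called. The groups did not overlap, as was so for 44.7% of all genes tested. It was -1.01 and called without RNY1+/+ EVFx replicate 1.

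Trem1 (chromosome 17), the DAP12-coupled amplifier of inflammatory responses in neutrophils and monocytes, had at most 1 count in any library and 5 counts over the 20 libraries. It was not detectable at this depth in any group, and no fold is given.

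Cd300a (ENSMUSG00000034652, chromosome 11), an inhibitory receptor for phosphatidylserine and phosphatidylethanolamine on dying cells, had PBS levels of 182, 176, 98.5 and 170 CPM (157 ± 39.1), replicate 3 being the lowest. With RNY1+/+ EVFx they were 36.1, 28.2, 27.4 and 26.5 CPM, and with RNY1-/- EVFx 32.6, 31.6, 24.8 and 22.5 CPM. With RNY1+/+ ProteinFx they were 24.2, 24.5, 27.4 and 15.6 CPM, and with RNY1-/- ProteinFx 67.1, 80.6, 35.1 and 50.2 CPM. Every treated library was below every PBS library, and the RNY1-/- ProteinFx libraries were above all those of RNY1+/+ ProteinFx. Log2 fold changes against PBS were -2.23 (standard error 0.20), -2.25 (0.20), -2.62 (0.22) and -1.36 (0.25), and without PBS replicate 3 they were -2.40, -2.39, -2.80 and -1.52. RNY1-/- against RNY1+/+ was -0.01 (0.13) in EVFx and 1.29 (0.22) in ProteinFx, where it was called. That difference was 1.58 with RNY1-/- ProteinFx replicates 1 and 2 alone and 0.91, not called, with replicates 3 and 4 alone. The difference between these genotype differences, from a fit of all 16 treated libraries, was 1.31 (0.27) and was called, and it was 0.93 and not called with RNY1-/- ProteinFx replicates 3 and 4 alone.

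Cd300lf (ENSMUSG00000047798, chromosome 11), a mainly inhibitory receptor of the same family that also binds phosphatidylserine, had PBS levels of 76.0, 79.6, 58.3 and 58.3 CPM (68.1 ± 11.4). With RNY1+/+ EVFx they were 40.8, 41.3, 22.1 and 23.3 CPM, and with RNY1-/- EVFx 38.9, 40.8, 17.7 and 17.9 CPM. With RNY1+/+ ProteinFx they were 220, 249, 201 and 203 CPM, and with RNY1-/- ProteinFx 194, 225, 175 and 159 CPM. The EVFx libraries were all below, and the ProteinFx libraries all above, those of PBS. In each of the 5 groups replicates 1 and 2 were both above 3 and 4. Against PBS the log2 fold changes were -0.91 (standard error 0.22) and -0.99 (0.26) with RNY1+/+ and RNY1-/- EVFx, not called, and 1.85 (0.13) and 1.53 (0.15) with RNY1+/+ and RNY1-/- ProteinFx, called. With the replicate block the RNY1-/- EVFx value was -1.06 (0.15) and was called. With total counts the EVFx values were -1.09 and -1.22, both called. Single libraries also moved them past the limit: the RNY1+/+ value was -1.05 or -1.06 without RNY1+/+ EVFx replicate 1 or 2, and the RNY1-/- value was -1.02 or -1.04 without PBS replicate 3 or 4 and -1.16 or -1.18 without RNY1-/- EVFx replicate 1 or 2. ProteinFx against EVFx was 2.76 (0.17) for RNY1+/+ and 2.53 (0.24) for RNY1-/- fluid. Donor genotype differences were small, -0.06 (0.27) in EVFx and -0.30 (0.12) in ProteinFx.

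Cd300ld (ENSMUSG00000034641, chromosome 11), an activating CD300 receptor that pairs with the Fc receptor γ chain, had PBS levels of 134, 106, 133 and 117 CPM (123 ± 13.7) and levels of 57.5 to 87.7 CPM in the 16 treated libraries, all below PBS. Log2 fold changes against PBS were -0.62 (standard error 0.11), -0.52 (0.11), -0.79 (0.12) and -0.55 (0.12), inside the fold limit and so not called. The genotype differences were 0.11 (0.08) in EVFx and 0.26 (0.11) in ProteinFx.

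Cd200r1 (ENSMUSG00000022667, chromosome 16), the inhibitory receptor for CD200 that signals through DOK2 and RasGAP, had PBS levels of 158, 147, 212 and 190 CPM. They were 115, 111, 113 and 97.1 CPM with RNY1+/+ EVFx, below all other groups, and 157, 154, 151 and 154 CPM with RNY1-/- EVFx. They were 160, 143, 148 and 142 CPM with RNY1+/+ ProteinFx and 128, 153, 179 and 171 CPM with RNY1-/- ProteinFx. Log2 fold changes against PBS were -0.52 (standard error 0.13), 0.04 (0.12), -0.09 (0.13) and -0.09 (0.16). RNY1-/- against RNY1+/+ was 0.57 (0.07) in EVFx and 0.01 (0.13) in ProteinFx, none of them called.

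**Figure D2:**
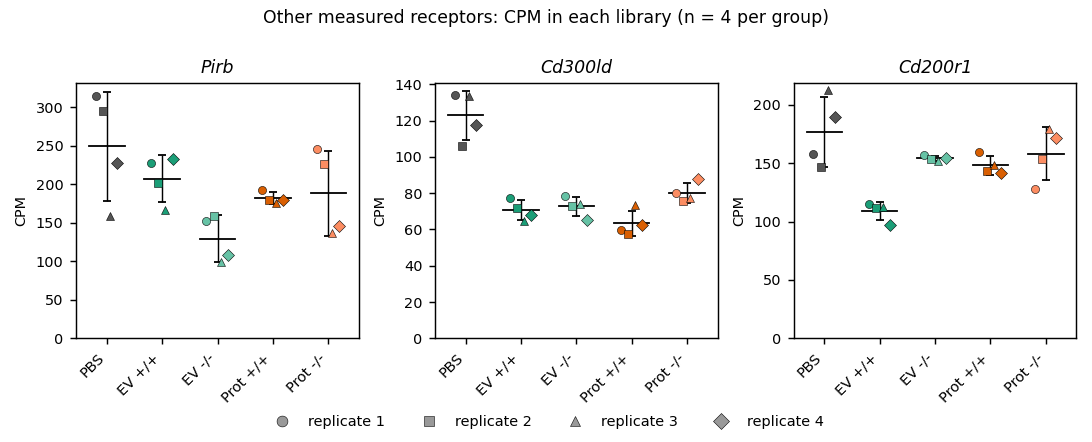
CPM of Pirb, Cd300ld and Cd200r1 in each library (points, 1 symbol per replicate number) by treatment group, with the group mean (horizontal line) and SD (bars), n = 4 libraries per group. The 16 treated libraries of Cd300ld lie at 87.7 CPM or less and the PBS libraries at 106 CPM or more, while Pirb and Cd200r1 overlap between PBS and both ProteinFx groups.

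Between donor genotypes, Tarm1 was lower with RNY1-/- fluid in both fractions and Cd300a was higher with RNY1-/- ProteinFx. In EVFx, 1 of 9 receptors tested was called, Tarm1, where 2.35% of all genes were called, 0.378% higher and 1.98% lower. In ProteinFx, 2 of 8 were called, Tarm1 lower and Cd300a higher, where 1.82% of all genes were called, 0.659% higher and 1.17% lower. Higher genes made up 16% of all calls in EVFx with TMM and 74.7% with GC and length trends removed, and in ProteinFx they made up 36.1% with TMM, 50.5% with total counts and 25.5% with the trends removed. The 2 differences themselves were compared in the fit of 16 libraries: 1 of 9 receptors was called, Cd300a, where 7.79% of all genes were called, 5.33% higher and 2.46% lower. Higher genes made up 68.4% of those calls with TMM, 87.9% with total counts and 20.9% with the trends removed. For Tarm1 the difference was -0.44 (standard error 0.35), so a difference between fractions in the size of its genotype effect was not shown.

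Between fractions, Cd300lf was higher with ProteinFx for both donor genotypes, and Treml4 was at or under the floor with ProteinFx and above it with EVFx for both. For RNY1+/+ fluid, 2 of 9 receptors were called, where 13.5% of all genes were called, 6.71% higher with ProteinFx and 6.82% lower. For RNY1-/- fluid, 1 of 8 was called, Cd300lf, Treml4 having failed the filter on low counts there with 127 counts over the EVFx libraries and 0 over those of ProteinFx, where 9.04% of all genes were called, 4.98% higher and 4.06% lower. Higher genes made up 55.1% of the latter calls with TMM, 68.9% with total counts and 37.5% with GC and length trends removed. For RNY1-/- fluid, Lilrb4a at -0.96 (standard error 0.14), Cd300a at 0.92 (0.20) and Trem2 at 0.88 (0.13) were near the limit and not called. With RNY1-/- ProteinFx replicates 1 and 2 alone they were -1.23, 1.19 and 1.07, all called, and with replicates 3 and 4 alone -0.73, 0.52 and 0.66, none called. All 4 RNY1-/- EVFx libraries were kept in both fits. They followed the same split: differently numbered libraries of the 2 groups correlated at 0.117 to 0.346 within it and -0.351 to -0.112 across it. These reduced fits are therefore not matched for it. Leaving out 1 library, Lilrb4a was called without RNY1-/- ProteinFx replicate 3 (-1.08) or 4 (-1.01), and Cd300a without RNY1-/- ProteinFx replicate 3 (1.07) or RNY1-/- EVFx replicate 1 (1.00). With total counts Cd300a (1.09) and Trem2 (1.05) were called, and with the trends removed Lilrb4a (-1.14) was.

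With no fold limit, against PBS, 8 of 9, 7 of 8, 6 of 8 and 6 of 8 receptors then passed with RNY1+/+ EVFx, RNY1-/- EVFx, RNY1+/+ ProteinFx and RNY1-/- ProteinFx, where 44.5%, 58.3%, 55.2% and 35.7% of all genes did. Between genotypes, 5 of 9 passed in EVFx and 3 of 8 in ProteinFx, where 52.1% and 5.57% of all genes did. Between fractions, 5 of 9 passed for RNY1+/+ and 5 of 8 for RNY1-/- fluid, where 63.3% and 29.2% of all genes did, and for the difference of genotype differences 4 of 9 passed, where 33% of all genes did.

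**Figure D3:**
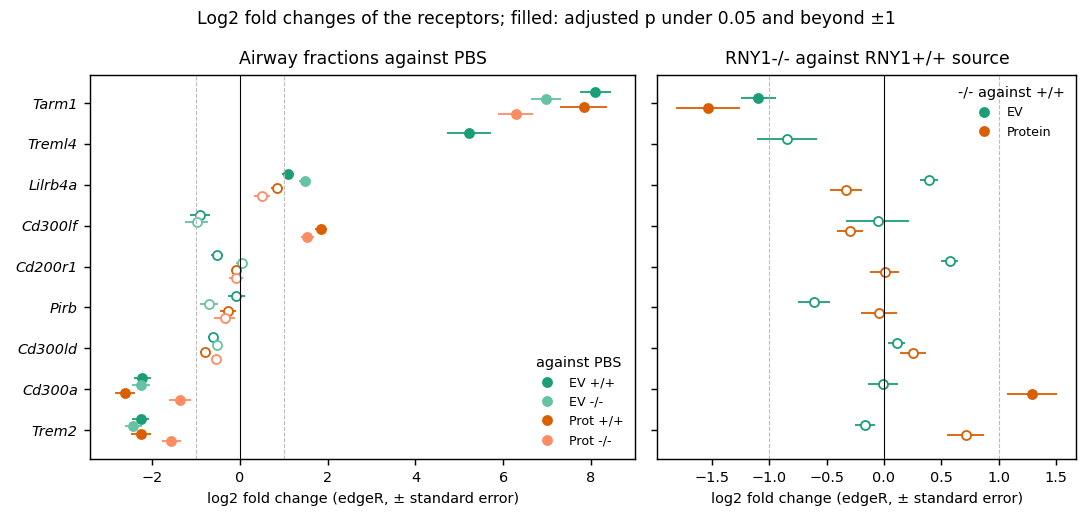
Log2 fold changes (edgeR, bars: standard error) of 9 receptors in the 4 treatments against PBS (left) and of RNY1-/- against RNY1+/+ fluid in EVFx and ProteinFx (right); n = 4 libraries per group, filled points are called, and dashed lines mark the fold limit of 1. Trem2 and Cd300a lie beyond -1 against PBS in all 4 treatments and Cd300lf lies on opposite sides of 0 in the 2 fractions. Values of Tarm1 and Treml4 against PBS are fitted against libraries at or under 3 counts and depend on the prior count.

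Related genes were taken from a list made by name and role, with earlier results of these data known, of 71 symbols of which 67 were in the table: relatives of the receptors, other paired receptors, activating adaptors and kinases, inhibitory effectors, and ligands or sheddases. Adjusted p-values are edgeR's over all genes tested. With RNY1+/+ EVFx against PBS 10 of 49 rose and 12 fell, so 44.9% were called against 16.4% of all genes, with a median log2 fold change of 0.02 over the list and -0.03 over all genes. With RNY1-/- EVFx 9 of 47 rose and 10 fell, 40.4% against 22.5% of all genes (median 0.01, all genes -0.03). With RNY1+/+ ProteinFx 11 of 47 rose and 5 fell, 34% against 21.3% (0.17, all genes -0.03), and with RNY1-/- ProteinFx 7 of 46 rose and 4 fell, 23.9% against 14.3% (-0.10, all genes -0.03). The list was made with results known, so nothing is read from these shares.

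Of the 11 activating adaptors and kinases tested, Tyrobp, the DAP12 adaptor used by Trem2 and Treml4, fell in all 4 comparisons with PBS, with log2 fold changes of -1.12, -1.36, -1.47 and -1.19 (adjusted p = 0.000204, 4.17e-05, 3.99e-05 and 0.000993). Hcst, which encodes DAP10, fell, with log2 fold changes of -1.29, -1.72, -1.82 and -1.60 (adjusted p = 0.00254, 0.000276, 0.000686 and 0.00223). Neither kept a call in any of the 4 once GC and length trends were removed, when their log2 fold changes were -0.55 to -0.73 for Tyrobp and -0.71 to -0.83 for Hcst. Lyn, a SRC family kinase of myeloid cells, rose by 1.67 with RNY1+/+ ProteinFx and 1.04 with RNY1-/- ProteinFx (adjusted p = 2.16e-07 and 3.27e-05), the latter being 0.97 with total counts and 0.86 with the trends removed, neither called. Vav1, an exchange factor downstream of SYK, rose by 1.05 with RNY1+/+ EVFx (adjusted p = 0.00206), and was not called with total counts (0.87) or without PBS replicate 3 (0.89) or RNY1+/+ EVFx replicate 4 (0.93). The kinase Btk fell by 1.03 with RNY1-/- EVFx (adjusted p = 0.00345), and was not called with the trends removed (-0.94) or without PBS replicate 1 (-0.86) or 2 (-0.97) or RNY1-/- EVFx replicate 3 (-1.0) or 4 (-0.87). SYK itself (Syk) was lower with ProteinFx than with EVFx from RNY1+/+ donors, at -1.09 (adjusted p = 5.76e-08), and was -0.81 and not called with the trends removed. Among 7 inhibitory effectors, Dok2, the adaptor of Cd200r1, fell in all 4, with log2 fold changes of -1.19, -1.96, -1.06 and -1.28 (adjusted p = 0.000566, 4.29e-05, 0.000515 and 0.00309), and was not called with the trends removed in 3 of them, at -0.97, -0.30 and -0.72 in RNY1+/+ EVFx, RNY1+/+ ProteinFx and RNY1-/- ProteinFx, nor in RNY1+/+ ProteinFx without PBS replicate 2 (-0.95) or in RNY1-/- ProteinFx with replicates 1 and 2 alone (-0.99). Ptpn6, the phosphatase SHP-1, rose by 1.01 with RNY1+/+ EVFx (adjusted p = 0.00391), and was not called with total counts (0.83), with all 20 libraries in 1 fit (0.99) or without PBS replicate 3 (0.84), PBS replicate 4 (0.96) or RNY1+/+ EVFx replicate 4 (0.87). Rasa1, a RasGAP, fell by 1.18 with RNY1+/+ EVFx (adjusted p = 0.00035), and was -0.97 and not called without PBS replicate 3. Csk, the kinase that restrains SRC family kinases, fell by 1.36 with RNY1-/- EVFx (adjusted p = 0.00145), and was -0.44 and not called with the trends removed.

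Among relatives of the receptors, Treml2, a TREM-like receptor, rose in all 4 comparisons, by 1.75 and 1.93 with the EVFx of RNY1+/+ and RNY1-/- donors and by 2.89 and 2.50 with their ProteinFx (adjusted p = 5.83e-05, 2.28e-05, 8.89e-08 and 2.16e-06). Cd300lb, an activating CD300 receptor that uses DAP12, fell, with log2 fold changes of -1.54, -1.41 and -1.28 in RNY1+/+ EVFx, RNY1-/- EVFx and RNY1+/+ ProteinFx (adjusted p = 1.18e-06, 6.65e-07 and 1.15e-05). Cd300e, another activating member, had 2 counts over the 4 PBS libraries and 5.81 to 9.76 CPM with RNY1+/+ EVFx, 90.9 times as many counts per library total (exact 95% interval 24.9 to 755). It was 4.99 to 6.55 CPM with RNY1-/- EVFx and 2.60 CPM at most with ProteinFx. The activating receptor Lilra6 fell with EVFx, with log2 fold changes of -1.87 and -1.54 for RNY1+/+ and RNY1-/- donors (adjusted p = 2.47e-05 and 8.85e-05). Its relative Pira12, with which reads can be shared, fell as well, with log2 fold changes of -1.22 and -1.12 (adjusted p = 0.000186 and 0.000374), the latter being -0.74 and not called with the trends removed. With RNY1-/- EVFx, Lilrb4b rose by 1.26 (adjusted p = 2.13e-05), and Cd200r4, a CD200 receptor relative, rose by 1.05 (adjusted p = 0.000258). Cd200r4 was not called with total counts (0.80), with the trends removed (0.93) or without PBS replicate 1 (0.99) or 2 (0.97) or RNY1-/- EVFx replicate 1 (0.98).

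Among the other paired receptors, Pilra, the inhibitory PILR receptor, rose by 2.74, 2.21 and 1.95 with RNY1+/+ EVFx, RNY1-/- EVFx and RNY1+/+ ProteinFx (adjusted p = 4.24e-08, 2.47e-07 and 9.93e-06). It was lower with RNY1-/- than with RNY1+/+ ProteinFx, by a log2 fold change of -1.38 (adjusted p = 0.00177). Cd33, a sialic acid-binding receptor, fell, with log2 fold changes of -2.0 and -1.61 with RNY1+/+ and RNY1-/- EVFx (adjusted p = 3.9e-07 and 3.87e-06). The SIRP relatives Sirpb1a, Sirpb1b and Sirpb1c, which can share reads, fell, with log2 fold changes of -1.67, -1.56 and -1.62 with RNY1+/+ EVFx (adjusted p = 9.08e-05, 7.19e-05 and 1.44e-05). They rose by 1.56, 1.53 and 1.55 with RNY1+/+ ProteinFx (adjusted p = 1.19e-05, 5.13e-06 and 3.82e-06) and by 2.04, 1.81 and 1.97 with RNY1-/- ProteinFx (adjusted p = 1.7e-05, 1.33e-05 and 7.23e-06). ProteinFx against EVFx was 3.23, 3.09 and 3.18 for RNY1+/+ fluid (adjusted p = 5.18e-09, 1.47e-09 and 2.92e-10) and 2.78, 2.62 and 2.71 for RNY1-/- fluid (adjusted p = 3.21e-07, 1.35e-06 and 4.41e-07).

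Among ligands and sheddases, H2-K1, an MHC class I gene whose product binds Pirb, rose in all 4 comparisons, by 1.62, 1.65, 1.48 and 1.45 (adjusted p = 2.81e-07, 5.94e-07, 1.08e-06 and 2.97e-05). B2m, the light chain of MHC class I, rose by 1.2, 1.33 and 1.27 in the last 3 (adjusted p = 2.82e-06, 2.1e-06 and 1.95e-05), the first of these being 0.96 and not called with total counts. Apoe, a ligand of Trem2, fell, with log2 fold changes of -1.05, -2.1, -1.90 and -1.52 (adjusted p = 0.0178, 0.000268, 0.000285 and 0.016), and was not called with GC and length trends removed in RNY1+/+ EVFx, RNY1+/+ ProteinFx and RNY1-/- ProteinFx, at -0.66, -0.93 and -0.76. It also fell by 1.04 in RNY1-/- against RNY1+/+ EVFx (adjusted p = 0.000501), the only related gene called there, and this was -0.42 and not called with the trends removed. Leaving out PBS replicate 1 or 2 (-0.88 each) or RNY1+/+ EVFx replicate 3 (-0.93) ended the call of Apoe in RNY1+/+ EVFx against PBS, leaving out RNY1-/- ProteinFx replicate 4 (-1.38) or keeping its replicates 1 and 2 alone (-1.04) ended it in RNY1-/- ProteinFx against PBS, and in RNY1-/- against RNY1+/+ EVFx it ended without RNY1+/+ EVFx replicate 1 (-1.0) or 4 (-0.94) or RNY1-/- EVFx replicate 3 (-0.94) or 4 (-0.95). Cd200, the ligand of Cd200r1, rose by 1.54 and 1.73 with RNY1+/+ and RNY1-/- EVFx (adjusted p = 0.000159 and 4.99e-05) and fell by 1.37 in RNY1-/- against RNY1+/+ ProteinFx (adjusted p = 0.0261), a value that was not called without RNY1+/+ ProteinFx replicate 4 (-0.91) or RNY1-/- ProteinFx replicate 2 (-1.28) or 4 (-1.38), or with RNY1-/- ProteinFx replicates 3 and 4 alone (-1.41). Cd200 and Pilra were the 2 related genes called there, of 46 tested.

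**Figure D4:**
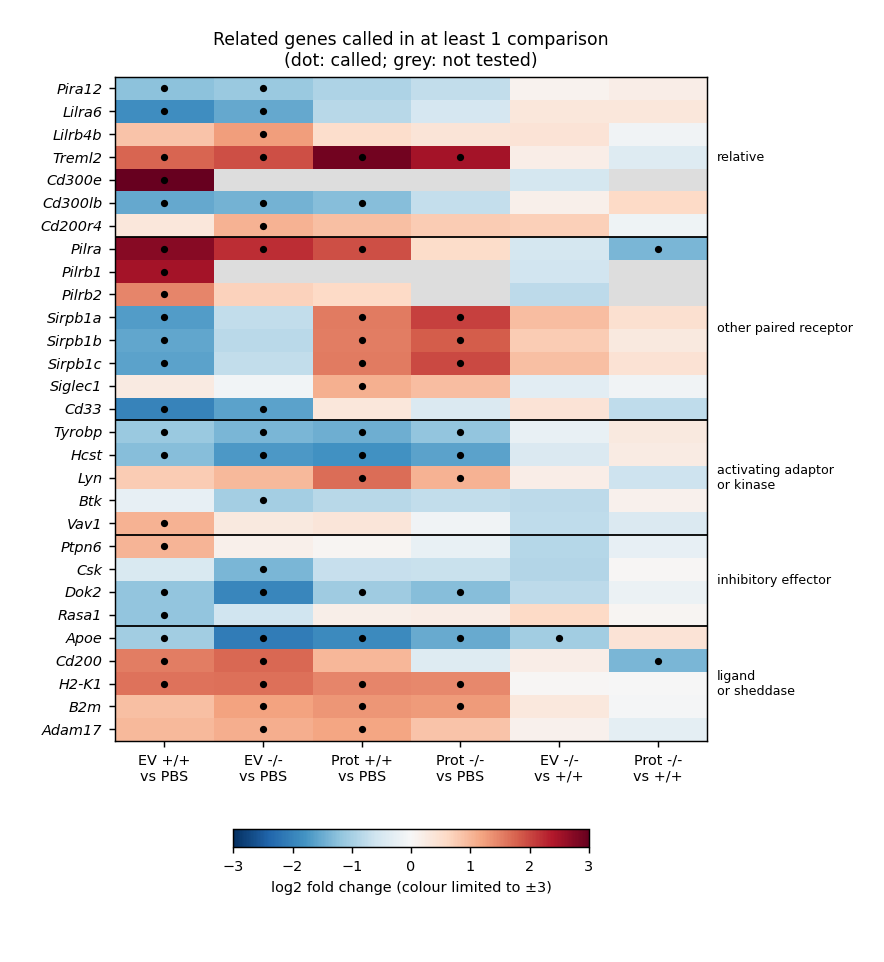
Log2 fold changes (edgeR, colour limited to 3 in either direction) of 29 related genes called in at least 1 of 6 comparisons: 4 treatments against PBS and RNY1-/- against RNY1+/+ fluid in EVFx and ProteinFx, n = 4 libraries per group. Rows are grouped by role, dots mark called values and grey cells were not tested; Tyrobp and Hcst are lower and Treml2 and H2-K1 higher in all 4 treatments, and Sirpb1a, Sirpb1b and Sirpb1c change sign between the fractions. Cd300e is fitted against PBS libraries at or under 3 counts.

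The genes whose pattern was closest to a receptor's were found by the root mean square difference of mean-centred log2 CPM over the 20 libraries, among 7551 genes with a mean of at least 10 CPM. For Tarm1 they were Cst7 (0.571), Gbp2 (0.586) and Slc13a3 (0.628). For Trem2 they were Serpinb6a (0.17), S100a6 (0.177) and Ptpn18 (0.268), and for Cd300ld Snx27 (0.13), Thap12 (0.149) and Cacul1 (0.156). The points share the 5 treatment groups, so these values describe likeness over treatments and say nothing of shared control.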

How the data were processed

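The 20 libraries were made from BMDMs by 3′-end sequencing of polyadenylated RNA with unique molecular identifiers. Per the submitters' processing notes and methods, reads were checked with FastQC 0.12.1, trimmed with fastp 0.24.0, aligned with STAR 2.7.11 to GRCm39, deduplicated by identifier and counted by strand over exons and 3′ UTRs with featureCounts (Subread 2.1.1), with multi-mapping reads shared as fractions. The authors deposited the resulting estimated counts, not normalized, and CPM, which equals count over library total. Fractional counts make near-identical relatives such as Lilrb4a and Lilrb4b uncertain. Since counts are 3′-end molecules, levels are not compared between genes. All libraries carry 1 batch label.

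Counts were rounded and tested with edgeR 4.0.16 (R 4.3.3) by quasi-likelihood, a test and a rounding the study's methods do not state, on the 8 libraries of 2 groups (16 for the difference of genotype differences), for genes kept by filterByExpr whose mean reached 3 CPM, with TMM scaling and Benjamini-Hochberg adjustment over all genes tested. Each standard error was taken as the absolute log2 fold change divided by √F. Ratios against groups near 0 carry exact 95% intervals. The members and the gene lists were chosen with earlier results of these data known. The named genes are the 10 receptors and, from the list of related genes, those called in a comparison; 1 item is not reported here. The tests were tried on simulated counts drawn independently at 1 fixed spread, without the differences between replicates seen here. That trial gives no error rate for these data. Alternatives were DESeq2 1.42.0, total counts, other filters, no fold limit, all libraries in 1 fit, counts rounded down, a replicate block, GC and length trends removed (natural splines of 4 degrees of freedom), single libraries left out, and RNY1-/- ProteinFx reduced to replicates 1 and 2 or 3 and 4. Summed relatives, and replicates 1 and 2 or 3 and 4 only in both groups, were added after the data were seen. The replicate numbers, from the labels, paired the samples of RNY1-/- EVFx with PBS and with RNY1-/- ProteinFx, where same-numbered libraries deviated together with correlations of 0.128 to 0.382 and 0.22 to 0.399 over 10640 genes. For PBS and RNY1-/- ProteinFx these correlations were also all positive, from 0.0182 to 0.641. There the replicate block lowered the standard error of each receptor tested, as for Cd300a from 0.25 to 0.10 and Trem2 from 0.22 to 0.09. In every other compared pair of groups the lowest such correlation was negative. Intervals cover counting error only. Promoters are from RefSeq on GRCm38.p6, and no other gene coordinates are given since the annotation at hand is of that older build; chromosomes are from it. Figures used matplotlib 3.10.9 with python 3.11.15 and pandas 2.3.3. Experiments of the study other than this sequencing were not analysed here.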

Additional observations from a re-analysis of the deposited data

Results flagged for a closer look

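Of 41 groups of 4 libraries in which a receptor was measurable, 2 held a library far from the rest, and chance gives about 1 such group in 20. Lilrb4a in RNY1-/- EVFx replicate 4 was 2191 CPM against 1999 CPM in the nearest library, a gap of 0.96 of the range of the group. Cd300a in PBS replicate 3 was 98.5 CPM against 170 CPM in the nearest, a gap of 0.862 of the range.

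For 4 genes with measurable levels the RNY1-/- against RNY1+/+ difference was itself called as different in ProteinFx and in EVFx, in an edgeR fit of 16 libraries. Cd300a had a difference of 1.31 on the log2 scale, ProteinFx minus EVFx, and was chosen by its values, so this is a description. Apoe had 1.44 (adjusted p = 0.00722). Cd33 had -1.17 (adjusted p = 0.00901). Cd200 had -1.58 (adjusted p = 0.00704). None of the 4 kept its call with RNY1-/- ProteinFx reduced to replicates 3 and 4, where the values were 0.93, 0.75, -0.95 and -1.61, and Apoe (0.66) and Cd33 (-0.89) also lost it with GC and length trends removed. Cd33 lost it as well with total counts (-0.998) and without RNY1+/+ ProteinFx replicate 4 (-0.87). Cd300e had a fitted difference of -1.69, which is no measure of size: with RNY1-/- ProteinFx it had 7 counts and no library above 3, and it entered the fit through its EVFx libraries.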

How the results depend on the processing

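Of 1522 values of the receptors under other settings, 1456 stayed within the spread between replicates, 66 moved by more and none of the called ones changed sign. Of 1745 values of related genes that were called, 1655 kept the call, 90 fell short of it and none changed sign. Both totals include the setting with no fold limit, which reuses the main fit. Its values could neither move nor lose a call. The causes of the changes were not tested. With DESeq2 the counts of receptors and of related genes called stayed within 1.5 times the main ones in every comparison, as they did with the replicate block, which gave 5 receptors in RNY1-/- EVFx against PBS (4 without it) and left the count of receptors as it was in the 8 other comparisons. In the 8 pairs of groups other than RNY1-/- EVFx with PBS or with RNY1-/- ProteinFx, the lowest correlation of same-numbered libraries lay between -0.392 and 0.0182. Over all genes the block gave 1771 calls (1775 without it) for RNY1+/+ EVFx against PBS and 1696 (1552) for RNY1-/- ProteinFx against PBS. It gave 173 (191) between genotypes in ProteinFx.

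With no fold limit the receptors called numbered 8 and 7 with RNY1+/+ and RNY1-/- EVFx against PBS, 5 between genotypes in EVFx, 5 each between fractions for RNY1+/+ and RNY1-/- fluid and 4 for the difference of genotype differences, where 44.5%, 58.3%, 52.1%, 63.3%, 29.2% and 33% of all genes were called so in this order, and the related genes 35, 30, 30 and 25 against PBS, 31 and 5 between genotypes in EVFx and ProteinFx, 37 and 21 between fractions for RNY1+/+ and RNY1-/- fluid and 18 for the difference. All genes called so made up 55.2% and 35.7% with RNY1+/+ and RNY1-/- ProteinFx against PBS and 5.57% between genotypes in ProteinFx. Between genotypes in EVFx, the 1 receptor called became 0 with GC and length trends removed and with replicates 1 and 2 only (chosen after seeing the data), and 0 to 2 when 1 library was left out. The 1 related gene became 2 with filterByExpr only or no filter, 0 with replicates 1 and 2 only and 8 with replicates 3 and 4 only, and 0 to 2 when 1 library was left out. Between genotypes in ProteinFx, the 2 receptors became 1 with RNY1-/- ProteinFx reduced to replicates 3 and 4, and 1 with replicates 1 and 2 only or 3 and 4 only in both groups. The 2 related genes became 5 with no filter, 4 with all 20 libraries in 1 fit, 1 with replicates 1 and 2 only, and 1 to 2 when 1 library was left out. Between fractions for RNY1-/- fluid, the 1 receptor became 3 with total counts, 2 with filterByExpr only, no filter, the trends removed or all 20 libraries in 1 fit, 2 and 5 with RNY1-/- ProteinFx reduced to replicates 3 and 4 or 1 and 2, and 1 to 4 when 1 library was left out. For the difference of genotype differences, the 1 receptor became 2 with total counts, and 0 and 2 with those reductions, and the 4 related genes (Cd300e among them) became 1 and 8 with the same reductions and 2 to 6 when 1 library was left out. Depth limits Trem1 in every group, Tarm1 in PBS, and Treml4 in PBS and ProteinFx, where libraries held at most 3 counts.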
